A study of Mus musculus with 6 samples.

Results

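The expression of 7 genes that encode subunits of the GABA-A receptor, Gabra2, Gabra3, Gabra4, Gabra5, Gabrb1, Gabrb2 and Gabrd, was measured in coronal sections of the mouse brain at 3 ages. The genes were taken by symbol from the feature lists. All 7 were found in each of the 6 sections, among 19465 genes in all and 19 genes of the GABA-A subunit family. The sections came from male, untreated C57BL/6J mice at postnatal day 21 (P21), in adulthood (12 to 15 weeks) and in old age (aged, 28 months), with 2 sections per age that the labels number as biological replicates. P21 and adult tissue was mounted directly on Visium v1 slides, whereas aged tissue was stained on glass slides and its probes were moved to Visium v2 slides in a CytAssist instrument. The study's methods also give a changed probe design for v2. Age, slide version, transfer step and probe design therefore cannot be told apart between aged and adult sections, while P21 and adult sections shared 1 workflow. The labels give sources of the animals that differ with age as well. They state that P21 mice were bred by the study and that adult and aged mice came from different suppliers. The study's methods name Jackson Laboratory for the mice, without a split by age.

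The GABA-A receptor is a pentameric chloride channel that is opened by GABA, the main inhibitory transmitter of the adult brain, and it is assembled from members of several subunit families. The α subunit sets much of the receptor's affinity for GABA and its response to benzodiazepines, and a β subunit is needed for assembly and contributes to the GABA binding site. Many receptors that hold a γ subunit cluster at synapses, with α2 and α3 among their α subunits. Receptors that hold the δ subunit in place of γ, commonly with α4, lie outside synapses in thalamic relay neurons, dentate granule cells and other forebrain neurons, where they carry a tonic current, and receptors with α5 are a main source of tonic inhibition in hippocampal pyramidal cells.

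In GENCODE vM21 on GRCm38, the assembly that mm10 denotes, Gabra2 (ENSMUSG00000000560, chr5:70957597-71095849, minus strand), Gabra4 (ENSMUSG00000029211, chr5:71569749-71658308, minus strand) and Gabrb1 (ENSMUSG00000029212, chr5:71658113-72149037, plus strand) lay on 1 stretch of chromosome 5. Gabra4 and Gabrb1 were head to head and overlapped by 196 bp at their starts, and Gabra2 lay 473899 bp from Gabra4. Gabra5 (ENSMUSG00000055078, chr7:57407672-57510059, minus strand) lay on chromosome 7 and Gabrb2 (ENSMUSG00000007653, chr11:42419757-42629028, plus strand) on chromosome 11. Gabra3 (ENSMUSG00000031343, chrX:72432681-72656848, minus strand) lay between the subunit genes Gabre and Gabrq, and Gabrd (ENSMUSG00000029054, chr4:155384980-155398112, minus strand) had no other member on its chromosome.

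Gabra2 and Gabra5, whose levels followed each other across the zones described below, both had their highest mean in a hippocampal subregion, and the 250 bases before their RefSeq starts (GRCm38.p6) are shown to compare the pair. Capitals mark the dinucleotide CG, the site of most DNA methylation, and neither stretch overlapped an annotated exon. The window of Gabra2, at chr5:71095850-71096099 on the minus strand, held 18 such pairs, and that of Gabra5, at chr7:57510060-57510309 on the minus strand, held 9.
Gabra2: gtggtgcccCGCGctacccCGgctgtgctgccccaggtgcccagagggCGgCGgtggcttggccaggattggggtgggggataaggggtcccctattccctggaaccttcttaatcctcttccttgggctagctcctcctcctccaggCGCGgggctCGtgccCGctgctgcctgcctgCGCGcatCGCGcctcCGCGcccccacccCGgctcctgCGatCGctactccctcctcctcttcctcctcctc
Gabra5: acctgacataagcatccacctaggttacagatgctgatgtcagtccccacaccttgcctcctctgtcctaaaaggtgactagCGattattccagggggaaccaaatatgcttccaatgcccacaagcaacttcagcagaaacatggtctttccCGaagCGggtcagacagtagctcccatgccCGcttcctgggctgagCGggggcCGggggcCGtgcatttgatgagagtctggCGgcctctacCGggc
RefSeq windows, which reach from 250 bases before to 50 after a start, were matched for 6 of the 7 genes, in 10 windows. Across them the number of CG pairs ran from 0 in both windows of Gabra3 to 25 in that of Gabra2 and in the upstream window of Gabrb1, against a median of 7.0 over 32851 windows, of which 94.6% held at least 1. The letters GCGTGGGCG (the Egr motif, both strands) were in 0 of the 10 windows and in 0.612% of all windows, TGACGTCA (the cyclic AMP response element) in 0 and in 1.79%, and TATAAA in 3, belonging to Gabra3 and Gabrb2, and in 13.6%. These are matches of letters and not measured binding sites.

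Spots with at least 250 genes and 500 UMIs, 20336 in all, were grouped by expression with the 7 genes and their pathway left out, and the clusters were named from region markers. The regions tested for age were FT (fiber tracts), HY (hypothalamus), CTX (cortex), STR (striatum), HP (hippocampus) and TH (thalamus). Levels alone are given for RT (reticular thalamus), VS (ventricular system) and meninges. HP was divided into CA1-2, CA3, dentate gyrus (DG) and matrix, and CTX yielded sub-clusters of upper layers (led by Gm765, Igfn1 and Stard8) and deep layers (led by Ighm, Rprm and Cplx3). Upper layers held 963 spots and deep layers 1374. The other CTX spots fell in a piriform and amygdalar sub-cluster (514 spots) and in sub-clusters of 892 and 848 spots without a name. Their levels are not given apart, so an order of layers covers only part of the CTX. A cluster of 2089 spots led by Lypd1, Cyp26b1 and Ccn3 stayed unnamed, VS also held habenular genes such as Chrna3, the HY name covered a second cluster led by Ccdc42 and Cartpt, and the matrix was led by blood and myelin genes, among them Hbb-bs and Hba-a2, although all 5 of its astrocyte markers were raised. A spot covers several cells, so that fewer cells of a type and less RNA per cell cannot be told apart. Sections held 42422997 to 106783660 UMIs, with medians of 12074.5 to 25535 per spot, and P21 replicate 1 was deeper than P21 replicate 2 (median 23543.5 against 12074.5 UMIs per spot). Sections on the same slide version shared 2612 to 3364 spot barcodes, which are slide positions, and aged sections shared 0 with the others.

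**Figure D1:**
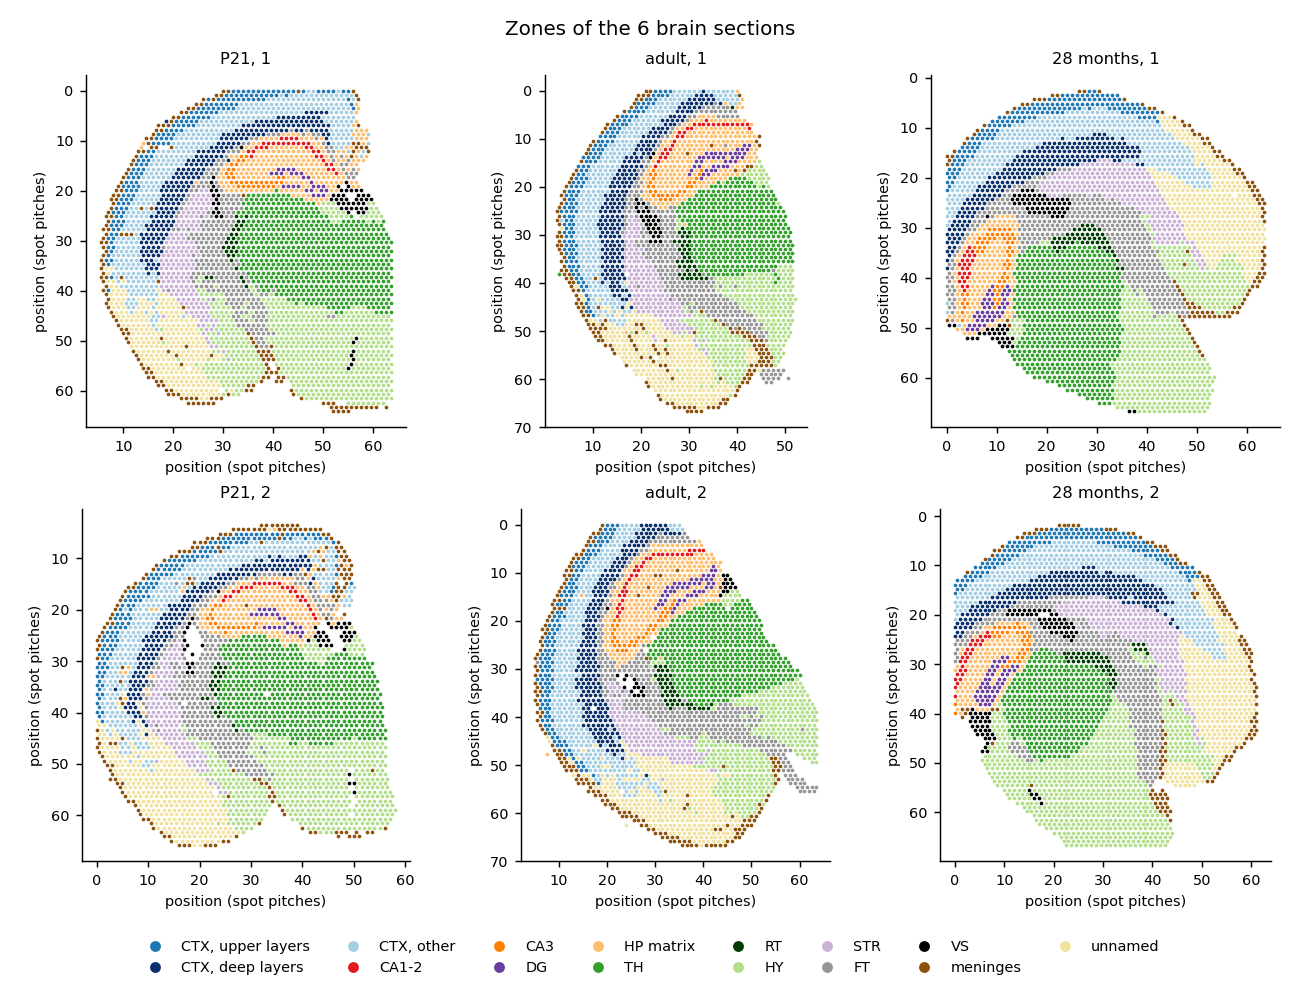
Zones of the 6 sections, with P21 in the left column, adult in the middle and 28 months on the right, each axis giving the position in spot pitches (the distance between neighbouring spots). Each point is a spot coloured by its zone; the aged sections were placed at another angle, with the hippocampus at the left edge of the slide area.

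Levels are UMIs of a gene in a zone, divided by all UMIs of that zone in the same section and scaled to 1e+06 (CPM). Each gene is read by its own probes, so levels were compared between zones and ages for a gene and not between genes. Zones are clusters of the same spots, and their order is a description without a test. Each zone of each section gave 1 value, and the number of sections that kept an order is stated.

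Gabra5, the α subunit of hippocampal tonic receptors, had its highest mean in CA1-2, at 585 and 764 CPM at P21, 683 and 685 CPM in adult and 758 and 680.1 CPM in aged sections. In CA3 it stood at 537 and 617 CPM at P21, 631 and 604 CPM in adult and 812 and 707 CPM in aged sections. CA1-2 was above CA3 in the 4 P21 and adult sections and below it in both aged sections, while CA3 was above DG, and DG above the matrix, in 6 of 6. The DG gave 397 and 418 CPM at P21, 417 and 442 CPM in adult and 498 and 451 CPM in aged sections. Outside the hippocampus, means over the 6 sections of all ages (± SD) were highest in the unnamed cluster (153 ± 22.9 CPM) and the deep cortical layers (150.1 ± 17.05 CPM). They were 77.04 ± 12.97 CPM in upper layers and 49.6 ± 17.9 CPM in the TH. Deep layers exceeded upper layers in all 6 sections. The mean of CA1-2 (693 ± 65.1 CPM) was the highest of the 14 zones and that of the RT (40.3 ± 25.04 CPM) the lowest.

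Gabra2, which encodes an α subunit of synapses and of the axon initial segment, had its highest mean in the DG, at 98.1 and 102 CPM at P21, 139 and 147 CPM in adult and 130.1 and 157 CPM in aged sections. The unnamed cluster came next (119 ± 13.7 CPM), below the DG in the 4 adult and aged sections and above it in both P21 sections, and CA3 (97.3 ± 10.5 CPM) and CA1-2 (96.8 ± 13.2 CPM) kept no order. It was lowest in TH (33.7 ± 8.32 CPM) and RT (30.2 ± 10.4 CPM), and upper cortical layers (82.3 ± 9.44 CPM) stood above deep layers (37.9 ± 4.68 CPM), the opposite layer order to that of Gabra5.

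Gabra3, an α subunit known from the reticular thalamus and from monoamine neurons, was low in the hippocampus, where Gabra2 and Gabra5 were high. The unnamed cluster led with 56.8 ± 5.99 CPM, and the RT, at 49.3 and 33.95 CPM at P21, 45.1 and 46.3 CPM in adult and 56.8 and 80.01 CPM in aged sections, was above the TH in all 6 sections. Deep and upper layers (45.2 ± 5.25 CPM and 44.5 ± 3.04 CPM) kept no order, with deep layers higher in 3 of 6 sections. In the hippocampus it was near the bottom of its range, with 6.34 ± 3.4 CPM in CA3 and 5.72 ± 2.71 CPM in DG. The DG values rested on 1.9 to 9.8 CPM per section, and Gabra3 was too sparse to be tested there.

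Gabra4 and Gabrd, which encode the α4 and δ subunits of thalamic and dentate tonic receptors, were both highest in the TH. Gabra4 in the TH read 359.8 and 389.7 CPM at P21, 416 and 441 CPM in adult and 509.8 and 481 CPM in aged sections, above the DG in 6 of 6 sections. The DG followed with 193 and 202 CPM at P21, 289 and 282 CPM in adult and 214 and 217 CPM in aged sections, and VS (67.8 ± 36.02 CPM), FT (71.5 ± 22.5 CPM) and HY (77.5 ± 13.4 CPM) were lowest. Gabrd in the TH read 216 and 229 CPM at P21, 233 and 261 CPM in adult and 270.1 and 277 CPM in aged sections, above the upper cortical layers in 6 of 6 sections. Upper layers gave 161 ± 30.99 CPM and STR 141 ± 15.4 CPM. The genes parted within the hippocampus, where Gabra4 stood at 116 ± 7.07 CPM in CA3 and Gabrd at 14.6 ± 13.2 CPM, its lowest mean of the 14 zones. The DG exceeded CA1-2 and CA3 in 6 of 6 sections for both genes, and the matrix in 6 of 6 for Gabra4 and 5 of 6 for Gabrd.

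Gabrb2, a β subunit of common synaptic receptors, was also highest in the TH, at 274 and 285 CPM at P21, 338 and 368 CPM in adult and 417 and 420.4 CPM in aged sections. Upper layers (234 ± 15.1 CPM) came next and exceeded deep layers (197 ± 7.29 CPM) in 6 of 6 sections. Deep layers, CA1-2, DG and the unnamed cluster followed with means of 181 to 197 CPM and kept their order from each to the next in 3 or 4 of 6 sections. Gabrb1, the β subunit that lies beside Gabra4 in the genome, had the flattest order of the 7. Its means ran from 133 ± 19.3 CPM in CA3, 128 ± 16.6 CPM in DG and 117 ± 14.9 CPM in HY to 41.96 ± 16.5 CPM in RT, and neighbours near the top kept their order in 4 or 5 of 6 sections.

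**Figure D2:**
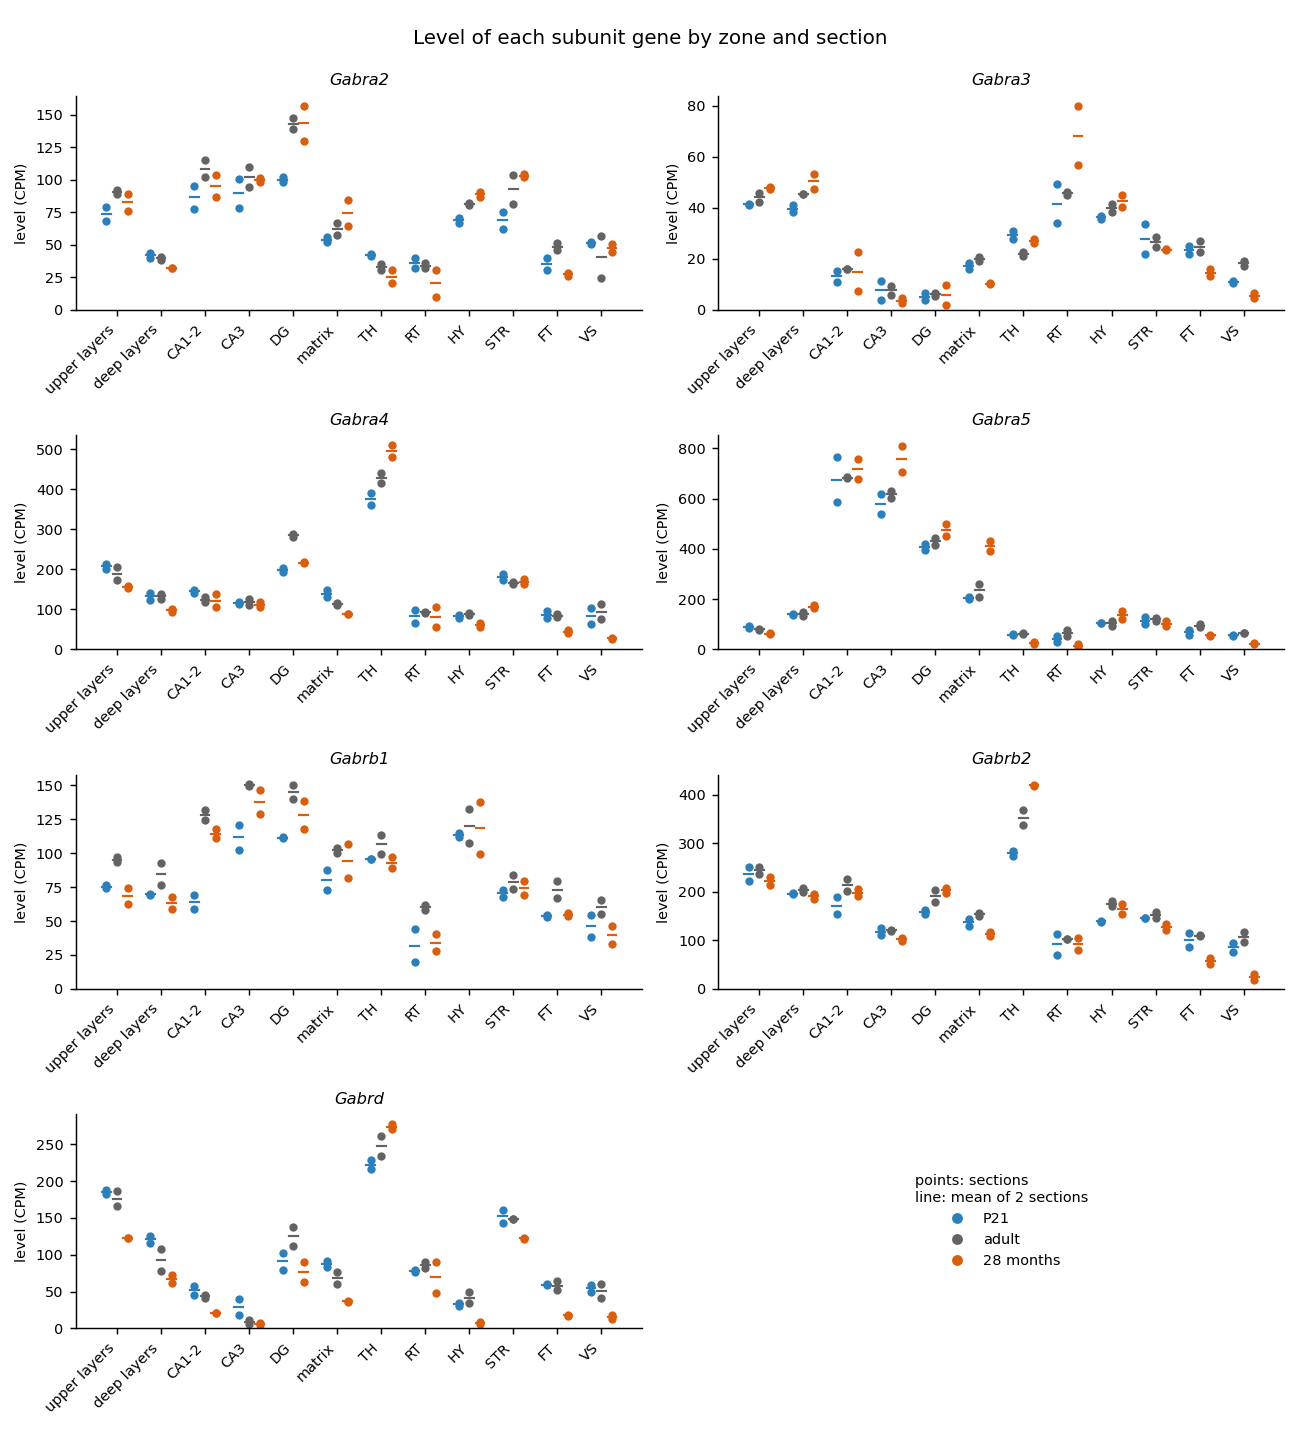
Level of each of the 7 genes (CPM, linear axis from 0) in 12 zones, with a point for each section (P21 blue, adult grey, 28 months orange) and a line at the mean of the 2 sections of an age. Gabra5 stood between 585 and 764 CPM in CA1-2, and Gabra4, Gabrb2 and Gabrd peaked in the TH in all 6 sections.

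The profiles were compared within each section by the correlation of log2(CPM + 1) across 11 zones, in which CTX was kept whole, HP was replaced by its subregions, and meninges and the unnamed cluster were left out. These points share libraries and neighbouring tissue and are given as a description. The highest mean over the 6 sections was 0.83 (range 0.76 to 0.91), of Gabra4 with Gabrb2, followed by 0.82 (range 0.78 to 0.85) for Gabra2 with Gabra5 and 0.71 (range 0.54 to 0.84) for Gabra5 with Gabrb1. Gabra4 with Gabrd gave 0.68 (range 0.55 to 0.84). The most opposed pairs were Gabra3 with Gabra5 at −0.62 (range −0.75 to −0.43) and Gabra3 with Gabra2 at −0.58 (range −0.68 to −0.49). Gabra4 and Gabrb1, which start within the same 196 bp, gave 0.44 (range 0.30 to 0.59), and Gabra4 with its neighbour Gabra2 0.13 (range 0.01 to 0.25).

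Among 10280 genes with a mean of at least 10 CPM, the 3 with the most similar profile to each gene, by mean r over the 6 sections, were as follows, with 2 given for Gabrb2. Gabra2 was closest to Ntrk3 (0.93), Gria1 (0.90) and Pds5b (0.90), of which Gria1 encodes an AMPA receptor subunit and Ntrk3 a neurotrophin receptor. Gabra5 was closest to Cacng8 (0.98), Cpne6 (0.97) and Plppr2 (0.96), with Cacng8 encoding an AMPA receptor auxiliary subunit. Gabra3 was closest to Chrm2 (0.88), Cxxc4 (0.87) and Ankrd34b (0.87), and Chrm2 encodes a muscarinic receptor. Gabra4 was closest to Atxn1 (0.86), Rgs7bp (0.86) and Adgrb1 (0.83). Of the 3 for Gabrb2, Kcnip4 and Adgrb1 gave 0.90 and 0.85. Gabrb1 was closest to Entpd6 (0.85), Lrfn2 (0.82) and Clstn2 (0.82). Gabrd was closest to Hlf (0.91), Mgat5b (0.82) and Rmnd5a (0.78), and Hlf encodes a circadian transcription factor.

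The comparison of P21 with adult sections asks which subunit genes were still below or above their adult level at weaning age. A gene was called in a zone at an adjusted p under 0.05 (edgeR quasi-likelihood test on UMIs summed per section and zone, Benjamini-Hochberg over all genes of the zone) and a fold change over 1.5. In the 6 regions, 0 of 42 tests of the 7 genes were called, with 16 of 42 at an unadjusted p under 0.05 and 0 called by DESeq2. Over all genes tested, the percent called was 5.51% in CTX, 6.7% in HP, 7.03% in TH, 3.84% in HY, 4.04% in STR and 9.42% in FT. The log2 fold changes of the 7 genes ran from −0.53 to 0.47, and their median by region from −0.22 in HP to −0.03 in CTX, against −0.02 and −0.02 over all genes tested there.

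In the subregions, 2 of 41 tests were called, Gabrb1 in CA1-2 and Gabrd in CA3. All genes tested gave 2.36% called in CA1-2, 2.33% in CA3, 6.53% in DG, 5.51% in the matrix, 6.4% in upper layers and 5.51% in deep layers. Gabrb1 in CA1-2 stood at 69.2 and 58.6 CPM at P21, 132 and 124 CPM in adult and 118 and 111 CPM in aged sections. Both P21 sections were below all other sections, and the difference from adult was log2 fold change −0.94 ± 0.18 (SE), adjusted p = 0.00218. The call was lost without P21 replicate 1 and with DESeq2 (adjusted p up to 0.0859), the log2 fold change staying between −1.09 and −0.87. The same direction held in HP as a whole (86.3 and 89.99 CPM against 127 and 123 CPM, log2 fold change −0.53 ± 0.11 (SE), adjusted p = 0.00647), which did not reach 1.5-fold. CA3 (adjusted p = 0.159) and DG (0.0986) did not pass, at log2 fold changes of −0.39 and −0.41.

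Gabrd in CA3 stood at 39.8 and 18.1 CPM at P21, 11.1 and 6.1 CPM in adult and 7.69 and 4.65 CPM in aged sections, and both P21 sections were above the adult and aged ones (log2 fold change 1.99 ± 0.38 (SE), adjusted p = 0.00138). These are low counts, of 9 to 70 UMIs per section over 18 to 58 spots of CA3, and the call was lost without P21 replicate 1, without adult replicate 2 and with DESeq2 (adjusted p up to 0.676). After thinning to equal depth the gene was too sparse there to be tested. In the DG, which borders CA3 and where Gabrd is higher, it gave 102 and 79.3 CPM at P21, 112 and 138 CPM in adult and 63.02 and 90.7 CPM in aged sections, with no call at P21 (adjusted p = 0.14). Markers of other cells moved with age in these zones, those of mature oligodendrocytes (all 6 present) among them. The summed level of the oligodendrocyte markers in CA3 was 4226 to 5417 CPM at P21 and 1535 to 2123 CPM in adult sections, in CA1-2 4074 to 6662 CPM and 1431 to 1758 CPM, and in DG 3588 to 5133 CPM and 824 to 1094 CPM. Erythrocyte markers (3 genes) summed to 651 to 1093 CPM at P21 and 31.8 to 60.6 CPM in adult sections in CA3, and to 663 to 1296 CPM and 63.6 to 98.6 CPM in CA1-2. Choroid plexus markers (4 genes) summed to 528 to 1985 CPM and 111 to 369 CPM in CA3, and to 387 to 691 CPM and 132 to 231 CPM in CA1-2. Interneuron markers (8 genes) summed to 603 to 705 CPM at P21 and 382 to 468 CPM in adult sections in CA3. In CA1-2 they overlapped between the ages, at 629 to 661 CPM and 550 to 1147 CPM. Pan-neuronal markers (8 genes) summed to 11429 to 12743 CPM at P21 and 13376 to 13409 CPM in adult sections in CA3. In CA1-2 the pan-neuronal markers summed to 6879 to 7002 CPM and 7308 to 7385 CPM. The part of these lists in the hippocampal differences was not tested.

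Gabra4 and Gabra2 had a lower level in the DG at P21 that passed the adjusted p but stayed under 1.5-fold. Gabra4 in the DG was 193 and 202 CPM at P21, 289 and 282 CPM in adult and 214 and 217 CPM in aged sections, so that the adult pair lay above both other ages (log2 fold change −0.57 ± 0.12 (SE), adjusted p = 0.00447). Gabra2 in the DG was 98.1 and 102 CPM at P21 and 139 and 147 CPM in adult sections (log2 fold change −0.55 ± 0.15 (SE), adjusted p = 0.0274). Both were called when regions were built with 20 principal components. In HP as a whole Gabra2 was 72.3 and 69.8 CPM at P21 against 90.2 and 101 CPM (log2 fold change −0.45 ± 0.10 (SE), adjusted p = 0.0141). The pan-neuronal markers in the DG summed to 5807 to 5856 CPM at P21 and 5905 to 6074 CPM in adult sections.

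In the TH, Gabra3 was 31.1 and 27.9 CPM at P21 against 22.7 and 21.01 CPM in adult sections (log2 fold change 0.47 ± 0.11 (SE), adjusted p = 0.017), and Gabrb2 was 274 and 285 CPM against 338 and 368 CPM (log2 fold change −0.31 ± 0.08 (SE), adjusted p = 0.0201). Neither reached 1.5-fold. In the CTX, Gabra3 was 36.4 and 38.2 CPM at P21 against 45.4 and 45.1 CPM (log2 fold change −0.28 ± 0.09 (SE), adjusted p = 0.0471), the opposite direction to the TH. Gabrd in the deep layers was 126 and 116 CPM at P21 against 108 and 77.5 CPM (log2 fold change 0.41 ± 0.13 (SE), adjusted p = 0.033), while in upper layers it was 188 and 182 CPM against 187 and 166 CPM (adjusted p = 0.759). Gabra5 had no log2 fold change beyond −0.36 in any region, and in CA1-2 it was 0.00 ± 0.12. In the FT, Gabra2, Gabra5 and Gabrb1 were lower at P21 and passed the adjusted p without reaching 1.5-fold. Their means there were 35.1, 68.2 and 53.8 CPM at P21 and 48.5, 94.2 and 73 CPM in adult sections. Pan-neuronal markers in the FT summed to 4468 to 4960 CPM at P21 and 5428 to 5627 CPM in adult sections. Interneuron markers there went the other way, at 1206 to 1244 CPM and 1107 to 1178 CPM. Mature oligodendrocyte markers summed to 49324 to 56969 CPM and 23152 to 24450 CPM, and the part of these lists was not tested.

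Whether the difference from adult varied among the 6 regions was tested with each section as a block, so that a shift common to all regions of a section does not count. At P21 this held for 2 of 7 genes, Gabra2 (adjusted p = 0.00581) and Gabra3 (0.0312), while 12.2% of all genes tested passed. Gabrb1 gave 0.0502. This count moved between 0 and 7 when 1 section was left out: it was 0 without P21 replicate 1 or without adult replicate 2, 1 without P21 replicate 2 or without adult replicate 1, 7 without aged replicate 1 and 6 without aged replicate 2. For Gabra2, the log2 fold change ran from −0.45 in HP and −0.36 in STR to 0.39 in TH. For Gabra3 it ran from −0.28 in CTX to 0.47 in TH.

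**Figure D3:**
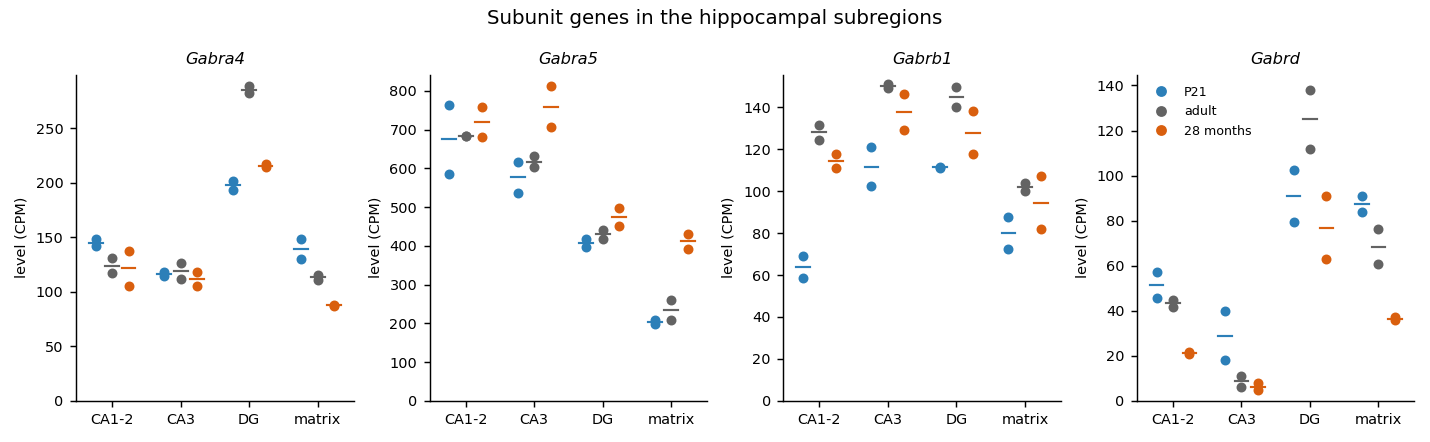
Level (CPM, linear axis from 0) of Gabra4, Gabra5, Gabrb1 and Gabrd in the 4 hippocampal subregions, with a point for each section and a line at the mean of the 2 sections of an age. Gabrb1 in CA1-2 was 58.6 and 69.2 CPM at P21 and 111 to 132 CPM in the other 4 sections, and Gabra4 in the DG was highest in the 2 adult sections.

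The comparison of aged with adult sections gave 10 calls among 42 tests, all of them lower in aged sections. Of these, 6 of 7 were in the FT and 4 of 35 (11.4%) in the other 5 regions. Over all genes tested, the percent called was 27.6% in FT, 10.5% in CTX, 12% in HP, 13.8% in TH, 11.7% in HY and 14.4% in STR, so that the share outside the FT was near that of all genes. The median log2 fold change of the 7 genes was −0.80 in FT against −0.04 over all genes, and from −0.18 in HP to 0.18 in TH elsewhere. DESeq2, plain library sizes, thinned counts, interior spots and 20 principal components each returned the same 10 calls. Without the limit on the fold change, 21 of 42 tests passed the adjusted p, 16 lower and 5 higher in aged sections. The higher ones were Gabra3, Gabra4 and Gabrb2 in the TH and Gabra5 in CTX and HP. Gabra4 in the HY was among the lower ones.

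Gabrd had the largest differences. In the HY it stood at 30.1 and 34.7 CPM at P21, 49.1 and 34.6 CPM in adult and 8.9 and 6.23 CPM in aged sections, and the aged sections were below all others (log2 fold change −2.54 ± 0.22 (SE), adjusted p = 0.000274). Some marker lists, the pan-neuronal list among them, were lower in the aged HY too. Mature oligodendrocyte markers summed to 6185 to 6879 CPM in adult and 4249.7 to 5156 CPM in aged sections, choroid plexus markers (all 4 present) to 387 to 596 CPM and 54.3 to 155 CPM, and pan-neuronal markers to 7052 to 7759.7 CPM and 6198 to 6834 CPM. Microglial markers summed to 156 to 163 CPM and 136 to 140 CPM. The other lists overlapped between the ages, with astrocyte markers at 1050 to 1061 CPM and 959 to 1077 CPM. Interneuron markers were at 1547 to 1703 CPM and 1271 to 1836 CPM, and erythrocyte markers at 128 to 420 CPM and 147 to 181 CPM. The part of these lists in the result was not tested. Spots counted 363 to 841 per section in the HY, and within the main hypothalamic cluster alone Gabrd was 43.4 and 35.3 CPM in adult and 6.97 and 5.24 CPM in aged sections. The second HY cluster held 141 and 193 spots in adult and 181 and 130 in aged sections. Gabrd there was 61.3 and 33.3 CPM and 13.02 and 11.7 CPM. The region markers of the HY (10 genes) differed widely between sections of the same age. They summed in the HY to 2705 and 8293 CPM in adult and 13998 and 3418 CPM in aged sections. The part of this spread was not tested. In the FT, Gabrd was 63.9 and 52.4 CPM in adult and 18.5 and 16.6 CPM in aged sections (log2 fold change −1.70 ± 0.14 (SE), adjusted p = 4.04e-09). In HP it was 67.3 and 65.1 CPM and 26.2 and 39.8 CPM (log2 fold change −0.95 ± 0.15 (SE), adjusted p = 0.000714). In the CTX it fell from 133 and 103 CPM to 81.7 and 93.3 CPM and passed the adjusted p without reaching 1.5-fold (log2 fold change −0.45 ± 0.11 (SE), adjusted p = 0.00387). The TH, where Gabrd is highest, differed in the other direction, with 233 and 261 CPM in adult and 270.1 and 277 CPM in aged sections (log2 fold change 0.18 ± 0.08 (SE), adjusted p = 0.112), which did not pass.

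Gabra5 moved in opposite directions in neighbouring regions. In the TH it stood at 60.02 and 58.6 CPM at P21, 60.8 and 64.3 CPM in adult and 31.4 and 22.3 CPM in aged sections, lower in both aged sections (log2 fold change −1.18 ± 0.14 (SE), adjusted p = 0.000144). Choroid plexus markers in the TH summed to 611 to 924 CPM in adult and 41.6 to 68.6 CPM in aged sections. Mature oligodendrocyte markers there summed to 6278 to 6339 CPM and 4021 to 4182 CPM, and pan-neuronal markers to 8853 to 9061 CPM and 8188 to 8381 CPM. The other lists overlapped between the ages in the TH, and the part of all these lists was not tested. In HP, Gabra5 was 407 and 433 CPM in adult and 648 and 561 CPM in aged sections (log2 fold change 0.57 ± 0.10 (SE), adjusted p = 0.00165), just under 1.5-fold. Of the subregions, the matrix was called higher, with 209 and 260.3 CPM in adult and 431 and 393 CPM in aged sections (log2 fold change 0.85 ± 0.12 (SE), adjusted p = 2.39e-05), whereas CA1-2 (log2 fold change 0.08 ± 0.12 (SE), adjusted p = 0.723), CA3 (log2 fold change 0.29 ± 0.11 (SE), adjusted p = 0.0749) and DG (adjusted p = 0.485) had no call. With interior spots alone the matrix difference was 0.33 and was not called (adjusted p = 0.34). The matrix made up 72.3% and 72.6% of hippocampal spots in adult and 55.8% and 53.3% in aged sections, and its part in the HP values was not tested. In the deep cortical layers, Gabra5 was 133 and 148 CPM in adult and 176 and 165 CPM in aged sections (log2 fold change 0.28, adjusted p = 0.0265). In upper layers it was 82.1 and 78.6 CPM in adult and 60.3 and 63.3 CPM in aged sections (log2 fold change −0.37, adjusted p = 0.0301), and neither reached 1.5-fold.

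In the FT, the white matter region, 6 of the 7 genes were called lower. Gabrb2 was 110.5 and 108 CPM in adult and 51.6 and 62.9 CPM in aged sections (log2 fold change −0.91 ± 0.12 (SE), adjusted p = 2.34e-06), and Gabra4 87.4 and 80.7 CPM and 47.2 and 39.9 CPM (log2 fold change −0.93 ± 0.12 (SE), adjusted p = 1.35e-06). Gabra2, Gabra3 and Gabra5 had log2 fold changes of −0.80, −0.75 and −0.73 (adjusted p = 4.68e-05, 0.00108 and 2.47e-05). Gabra5 was not lower throughout the FT. In FT spots up to 3 spot pitches from the HP it was 115 and 119 CPM in adult and 126 and 136 CPM in aged sections. Equally near the CTX it was 102 and 116 CPM and 133 and 130 CPM, and near the TH 105 and 112 CPM and 66.7 and 33 CPM. Beyond 6 pitches from the HP it was 80.2 and 89.9 CPM in adult and 28.9 and 29.1 CPM in aged sections. Gabrb1, which is also known from glia, passed the adjusted p at a log2 fold change of −0.39 (adjusted p = 0.00505) without reaching 1.5-fold. The pan-neuronal markers, all 8 present, summed to 5428 to 5627 CPM in the adult FT and 2782 to 2899 CPM in the aged FT, the mature oligodendrocyte markers to 23152 to 24450.3 CPM and 27628 to 29413 CPM, and the astrocyte markers to 1155 to 1161 CPM and 1582 to 1655 CPM. Interneuron markers (8 genes) went the other way from the pan-neuronal list, at 1107 to 1178 CPM in the adult and 1259 to 1436 CPM in the aged FT. Microglial markers in the FT summed to 250.3 to 278 CPM and 473 to 528 CPM and choroid plexus markers to 1578 to 2989.9 CPM and 954 to 1253 CPM. Their part in the result was not tested.

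Gabra3 in HP was 13.4 and 14.2 CPM in adult and 7.26 and 7.34 CPM in aged sections (log2 fold change −0.87 ± 0.19 (SE), adjusted p = 0.00458), and in the matrix 19.2 and 20.7 CPM and 10.1 and 10.6 CPM (log2 fold change −0.92 ± 0.25 (SE), adjusted p = 0.00847). In the TH it passed in the other direction without reaching 1.5-fold, at 22.7 and 21.01 CPM in adult and 27.8 and 26.4 CPM in aged sections (log2 fold change 0.35 ± 0.12 (SE), adjusted p = 0.0341). The HP call was lost without adult replicate 2 (adjusted p = 0.0502), and the matrix call under 3 of 14 alternatives, DESeq2, thinning to equal depth and without adult replicate 2 (adjusted p up to 0.0893). Mature oligodendrocyte markers in the matrix summed to 5704 to 6143 CPM in adult and 3714 to 3964 CPM in aged sections, and in HP to 3107 to 3559 CPM and 1404 to 1756 CPM. Pan-neuronal markers in the matrix summed to 7945 to 8105 CPM in adult and 6387 to 7848 CPM in aged sections. In HP they overlapped, at 8430 to 8586 CPM and 8057 to 9078 CPM. Microglial markers in the matrix summed to 262 to 286 CPM and 305 to 439 CPM. Their part in these results was not tested.

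In the subregions 5 of 41 tests were called, Gabrd lower in CA1-2, DG and matrix, Gabra3 lower and Gabra5 higher in the matrix. Over all genes tested the percent called was 7.17% in CA1-2, 7.55% in CA3, 7.08% in DG, 15.3% in the matrix, 12.7% in upper layers and 11.7% in deep layers. Gabrd in CA1-2 was 41.8 and 44.7 CPM in adult and 20.7 and 21.5 CPM in aged sections (log2 fold change −1.02 ± 0.25 (SE), adjusted p = 0.00988). In the DG it was 112 and 138 CPM and 63.02 and 90.7 CPM (log2 fold change −0.66 ± 0.18 (SE), adjusted p = 0.0207), and in the matrix 76.1 and 60.8 CPM and 37.2 and 35.9 CPM (log2 fold change −0.86 ± 0.15 (SE), adjusted p = 0.000297). The call of Gabrd in the DG was lost under 6 of 14 alternatives and that in CA1-2 under 4 of 14, leaving out either adult section among them, whereas the matrix call was kept under all 15. In CA1-2, mature oligodendrocyte markers summed to 1431 to 1758 CPM in adult and 402 to 799 CPM in aged sections. Pan-neuronal markers there summed to 7308 to 7385 CPM and 6435 to 7207 CPM, and in the matrix to 7945 to 8105 CPM and 6387 to 7848 CPM. In the DG they overlapped between the ages, at 5905 to 6074 CPM and 5875 to 6746 CPM. In the DG, microglial markers summed to 75.3 to 75.8 CPM in adult and 103 to 125 CPM in aged sections. Astrocyte markers there summed to 375 to 401 CPM and 427 to 612 CPM. Choroid plexus markers differed widely between the aged sections. They summed to 80.6 to 169 CPM in the adult and 31.7 to 2266 CPM in the aged DG. In the matrix they summed to 418 to 978 CPM and 109 to 2361 CPM. The part of these lists was not tested. Gabra4, the partner of Gabrd in dentate granule cells, was 214 and 217 CPM in the aged and 289 and 282 CPM in the adult DG (log2 fold change −0.41 ± 0.11 (SE), adjusted p = 0.0219), short of 1.5-fold.

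**Figure D4:**
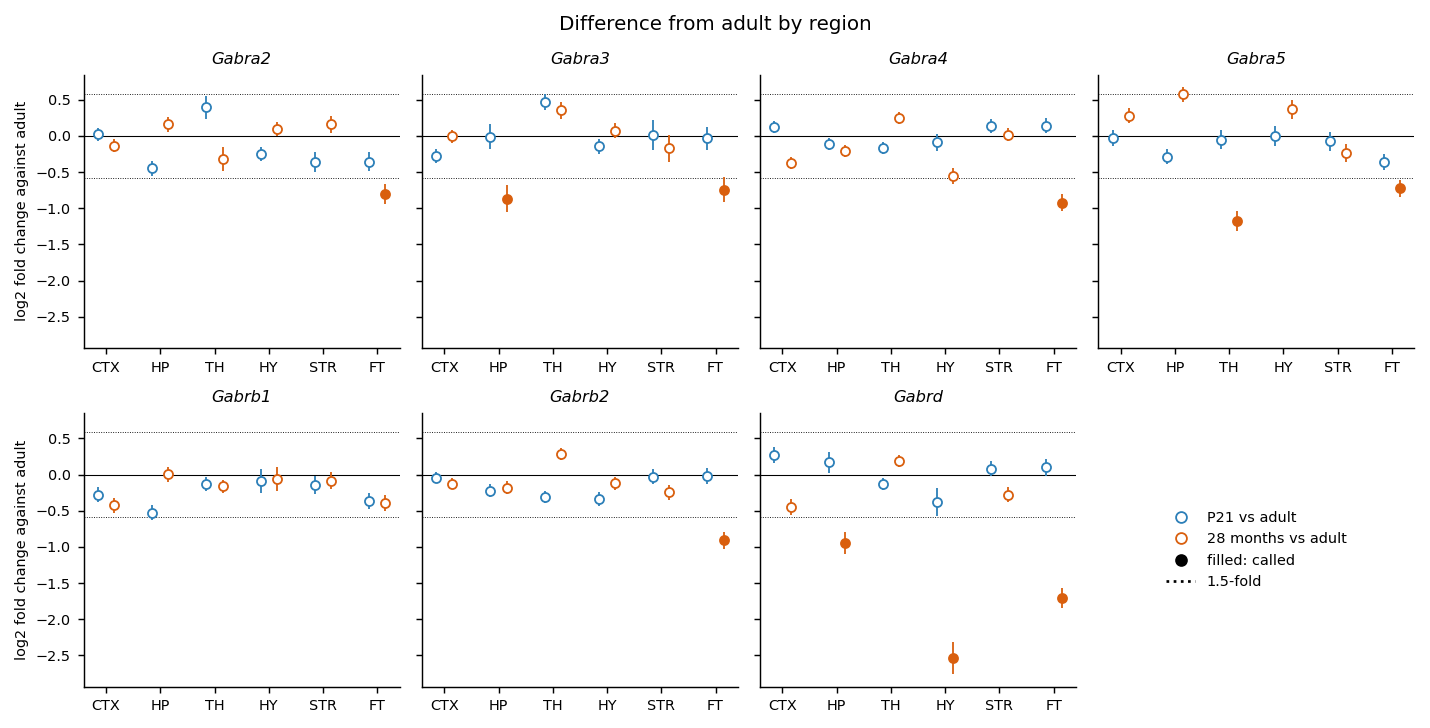
Log2 fold change against adult for each gene in 6 regions, with P21 in blue and 28 months in orange, error bars giving the standard error and dotted lines 1.5-fold. Filled points mark the 10 calls, all at 28 months and all below 0, of which Gabrd in the HY (−2.54) was farthest from 0.

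All 7 genes had a difference between aged and adult sections that varied among the 6 regions, with adjusted p from 4.02e-10 for Gabra5 and 9.61e-09 for Gabrd to 0.0113 for Gabrb1, but so did 48.8% of all genes tested. For each of the 7, the ratio of the highest to the lowest of the 6 regions was larger in both aged sections than in both adult ones, a description without a test. This ratio was 4.76 and 7.54 for Gabrd in adult sections and 30.3 and 44.5 in aged sections. For Gabra5 it was 6.7 and 6.74 in adult and 20.6 and 25.1 in aged sections, and for Gabrb1, the flattest gene, 1.91 and 1.67 against 2.47 and 2.1.

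Region markers were read outside their own region for comparison. Of 30 pairs of a marker panel and another region, 24 had a lower percent of the home level in both aged sections than in both adult sections and 0 a higher one. The HP marker panel (7 genes, none of them a subunit gene) had in the TH 14.99% and 14.7% of its HP level at P21, 18.97% and 17.5% in adult and 5.36% and 5.51% in aged sections. The TH panel had in the HY 17.4% and 16.4% of its TH level at P21, 14.2% and 12.1% in adult and 6.28% and 8.51% in aged sections. In the FT, the CTX panel had 37.8% and 35.3% in adult and 15.4% and 15.3% in aged sections, while in the TH it had 30.8% and 32.3% and 33.7% and 28.4%. In its own region, the HP panel was higher in both aged sections (6236 and 6232 CPM against 3832 and 3843 CPM in adult sections). So were the TH panel (6485 and 6495 against 4631 and 5127 CPM), the STR panel (6906 and 7553 against 5218 and 4699 CPM) and the FT panel (51862 and 50654 against 45454 and 43493 CPM). The CTX panel was lower in its own region (1301 and 1340 against 1573 and 1429 CPM), and the HY panel overlapped. A lower percent is thus not always a lower level, as for the HP panel in the CTX (937 and 1080 against 1041 and 977 CPM). In the TH, the HP panel was lower on the CPM scale too (334 and 344 against 727 and 673 CPM). The part of these panels in the aged results was not tested.

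The 2 largest differences outside the FT were followed from the border inwards, in bins of distance to the nearest spot of the region where the gene is high. Gabrd in HY spots up to 3 spot pitches from the TH was 61.1 and 40.05 CPM in adult and 12.5 and 12.02 CPM in aged sections, and beyond 6 pitches 46.7 and 33.2 CPM and 9.5 and 5.49 CPM. The difference in Gabrd was present at every distance. The TH panel in the HY spots near the TH was 958 and 947 CPM in adult and 806 and 1036 CPM in aged sections. Beyond 6 pitches the panel was 512 and 508 CPM and 311 and 422 CPM, and its part was not tested. Gabra5 in TH spots up to 3 pitches from the HP was 116 and 106 CPM in adult and 60.7 and 55.8 CPM in aged sections, and beyond 6 pitches 50.9 and 51.3 CPM and 28.2 and 17.5 CPM. It was highest next to the HP in all 6 sections. The HP panel in the same TH spots was 1054 and 1039 CPM near and 632 and 584 CPM far from the HP in adult sections, and 428 and 432 CPM and 328 and 334 CPM in aged sections.

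**Figure D5:**
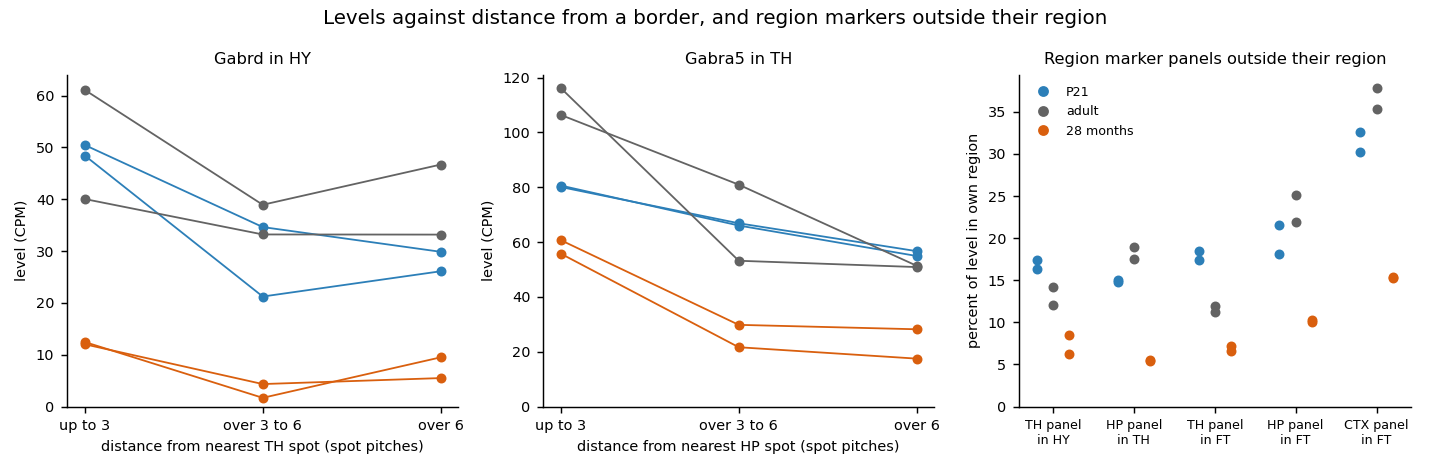
Left and middle, level (CPM) of Gabrd in HY and of Gabra5 in TH by distance from the nearest TH or HP spot in spot pitches, with a line for each section; right, summed level of region marker panels outside their region as a percent of their level at home, with a point for each section. Aged sections (orange) lay below the P21 and adult sections at every distance and for all 5 panel and region pairs.

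Over whole sections, where sections differ in the regions they hold, none of the 7 genes was called at either age, while 5.12% of all genes were called at P21 and 8.99% in aged sections. Gabrd was 118 and 115 CPM at P21, 118 and 113 CPM in adult and 90.97 and 84.9 CPM in aged sections, and the aged value passed the adjusted p below 1.5-fold (log2 fold change −0.50 ± 0.07 (SE), adjusted p = 0.00013). The median over all genes tested was −0.10 in this comparison. Gabra5 was 135 and 154 CPM in adult and 175 and 157 CPM in aged sections (adjusted p = 0.378), although it was lower in TH and FT and higher in the matrix.

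The rest of the GABA pathway was read from a list of 40 genes (the other GABA-A subunits, GABA-B receptors, synthesis, transport, chloride transport and the postsynaptic scaffold). Between P21 and adult sections, the number called per region was 0 to 3 of 30 or 31 tested, and between aged and adult sections 3 to 7 outside the FT and 18 of 31 in the FT. Over all genes tested, the percent called ran from 3.84% to 9.42% between regions at P21, and in aged sections from 10.5% to 14.4% outside the FT, with 27.6% in the FT. Each gene below is given in the zone of its largest difference. Among the other subunits, Gabrq (θ) was higher at P21 in the TH, at 14.2 and 14.2 CPM against 2.52 and 4.68 CPM in adult sections (log2 fold change 1.97 ± 0.24, adjusted p = 0.00032). It was also called higher in STR and FT. In the TH it passed the limit on detection only through the P21 sections, where it was high. Too few adult and aged TH spots held a UMI of it, so it was not tested there between aged and adult sections. Slc12a2, the chloride importer NKCC1, was higher in the P21 CA1-2, at 55.6 and 29.3 CPM against 16.1 and 18.9 CPM in adult sections (log2 fold change 1.41 ± 0.32, adjusted p = 0.0127). The oligodendrocyte, erythrocyte and choroid plexus markers given above were higher there at P21 too, and their part was not tested. The GABA transporter Slc6a11 and the GABA-degrading enzyme Abat were higher in the P21 DG (log2 fold changes 0.83 and 0.72), and Slc6a11 also in CA1-2. Kctd8, a GABA-B auxiliary subunit, was higher in HP (0.99) and in its matrix. Plcl1, a GABA-A trafficking partner, was lower in FT (−0.80) and was also called lower in TH, HY and the matrix.

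In aged sections, 13 of the 18 called in the FT were lower, among them Gabrg3 (log2 fold change −1.13 ± 0.14, adjusted p = 8.87e-07), the GABA-B subunit Gabbr2 (−1.45), its partner Kctd16 (−1.27), the chloride exporter Slc12a5 (−1.25) and the synaptic adhesion gene Slitrk3 (−0.95). Of the GABA-synthesis genes, Gad1 was called higher in 5 of 6 regions and Gad2 in STR and FT. Gad2 in the STR was 1101 and 1119 CPM against 589 and 612 CPM in adult sections (log2 fold change 0.89 ± 0.09, adjusted p = 5.74e-07), and Gad1 in CA3 50.96 and 25.9 CPM against 11.1 and 14.2 CPM in adult sections (log2 fold change 1.57 ± 0.31, adjusted p = 0.000678). The region without a call for Gad1 was the TH, and all 6 subregions had one. In the TH, Gad2 and the vesicular GABA transporter Slc32a1 were lower, the latter at 6.02 and 5.22 CPM against 13.1 and 14.8 CPM in adult sections (log2 fold change −1.27 ± 0.17, adjusted p = 0.000293). Iqsec3, a gephyrin partner, was higher in the matrix (log2 fold change 1.08 ± 0.13, adjusted p = 3.86e-06). It was also called higher in CTX, HP, HY, CA1-2, DG, upper layers and deep layers. Kctd12 was higher in the matrix (0.81) and was called higher in FT and CA1-2 too, and Gabrq was higher in the STR (1.12).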

How the data were processed

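Spatial transcriptomes of FFPE coronal mouse brain sections were read from the deposited matrices, which hold UMI counts per gene and spot. Per the file headers, the authors counted probe reads with Space Ranger 2.0.0 (P21 and adult) or 3.1.1 (aged), on mm10, whereas the submitters' processing notes name Space Ranger 2.1.0 and Seurat 5.1.0. Probes exist per gene, so overlapping genes are read apart as far as the probes are specific. No sections were pooled. Sections held 42422997 to 106783660 UMIs, and a low level rests on few UMIs.

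Spots (at least 250 genes and 500 UMIs) were clustered with python 3.11.15 and leidenalg 0.10.2 on 3000 variable genes, without 46 genes of the family and pathway, using 10 principal components and 20 neighbours. Clusters were named from marker lists, and zones may differ from the study's own. Doublets do not apply to spots. UMIs were summed per section and zone. To be tested, a gene needed UMIs in over 10% of the zone's spots at either age compared. It also needed them in at least 10% of all spots. Ages were compared in R 4.3.3 with edgeR 4.0.16 (TMM, quasi-likelihood) over all 6 sections, with Benjamini-Hochberg adjustment per zone. Standard errors were the log2 fold change divided by the root of F. P-values set a difference against the spread between the 2 sections of an age. This spread was pooled over the 3 ages and moderated across genes. DESeq2 1.42.0 and other settings were alternatives, and the edgeR steps were tested on simulated data. Named were the 7 genes throughout, at most 3 called pathway genes per group of the list and comparison, and the 3 most similar genes of each, some of which are not reported here. The members and lists were chosen with earlier results of these data known.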

Additional observations from a re-analysis of the deposited data

Results flagged for a closer look

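The difference from adult sections varied among the 6 regions for several genes, as tested by the region-by-age term of an edgeR quasi-likelihood fit with each section as a block. At P21 the adjusted p was 0.00581 for Gabra2 and 0.0312 for Gabra3, and 12.2% of all genes tested passed. In aged sections it was 4.02e-10 for Gabra5, 9.61e-09 for Gabrd, 1.74e-06 for Gabrb2, 1.75e-06 for Gabra4, 0.000109 for Gabra3, 0.000565 for Gabra2 and 0.0113 for Gabrb1, and 48.8% of all genes tested passed. For Gabra5, the aged log2 fold change ran from −1.18 in TH to 0.57 in HP. For Gabrd it ran from −2.54 in HY to 0.18 in TH. In the aged values, age cannot be told apart from the slide and probe workflow.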

How the results depend on the processing

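Of the results for single genes and zones, 2562 alternative values kept their side of the threshold, 58 became called and 20 were no longer called. Of the 58, 38 came from dropping the limit on the fold change, which can only add calls. Direction was compared only where the main or the alternative value was called, and 0 of these reversed. For P21 against adult sections, the 0 calls in regions became 1 with interior spots (Gabrb1 in HP), 8 with no limit on the fold change and 0 to 2 with a section left out. The 2 subregion calls became 0 with DESeq2, 4 with 20 principal components, 0 with interior spots (20 tests, since it could not be made for CA1-2, CA3 and DG, where a section had 0 interior spots), 1 after thinning to equal depth, 5 with no limit on the fold change and 0 to 3 with a section left out. For aged against adult sections, the 10 calls in regions became 21 with no limit on the fold change and 10 to 12 with a section left out. The 5 subregion calls became 2 with DESeq2, 16 with no limit on the fold change and 3 to 6 with a section left out, and the 4 with interior spots shared 1 with them (Gabrd in the matrix). The 2 genes with a region-by-age difference at P21 became 0 to 7 with a section left out, and the 7 in aged sections 6 to 7. The causes of these changes were not tested. With the replicate number as a block the counts were 0 and 2 at P21 and 10 and 5 in aged sections, the same calls as without it. Gene by gene, the difference between replicates 1 and 2 correlated between ages at −0.44 to 0.10, lowest in the HY for adult and aged sections. The main fits did not pair sections by replicate number. Low counts limit Gabrd in CA3, with 9 UMIs in its lowest section, and Gabra3 in DG, which was not tested.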
